A study of Mus musculus with 2 samples.

Results

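The genes described here are 8 ITAM adaptor, kinase and Fc receptor genes, used by macrophages to read antibodies and other surface signals: the signal-chain genes Fcer1g, Tyrobp and Hcst, the kinase gene Syk, and the IgG receptor genes Fcgr1, Fcgr2b, Fcgr3 and Fcgr4. They were chosen by symbol, each stood on 1 row of the expression table, and they are 8 of the 34295 genes it lists. Poly(A) RNA was sequenced from wild-type C57BL/6J mouse cells of 2 kinds, 1 library each. The first was of embryonic fibroblasts (MEF), from E13.5 to E14.4 embryos without head and red tissue, sorted to remove cells carrying the products of Ptprc (CD45), Itgam (CD11b) and Adgre1, used at passage 4 to 7 in medium with 10% serum and collected from 100000 cells. The other was of bone marrow derived macrophages (BMDM), differentiated for 6 days in medium with 10% serum and 30% L929-conditioned medium, then plated at 750000 cells. How many embryos or mice went into each library is not given in the sources used here.

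An immunoreceptor tyrosine-based activation motif (ITAM) is a short stretch in the tail of a signal chain that carries a pair of tyrosines. Src family kinases phosphorylate them, Syk docks on the pair through its tandem SH2 domains, and downstream signals lead to phagocytosis and cytokine release. Fcer1g encodes the gamma chain used by the activating Fc gamma receptors, Tyrobp encodes DAP12, the chain of TREM2 and related receptors, and Hcst encodes DAP10, whose tail binds PI3 kinase in place of Syk. Fcgr1, Fcgr3 and Fcgr4 encode activating IgG receptors, whereas Fcgr2b encodes the inhibitory one, whose tail carries an inhibitory motif (ITIM) that recruits the phosphatase SHIP1.

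The coding stretches of these motifs are shown because they are the sites through which the chains and the inhibitory receptor signal. They were read from GENCODE M21 transcripts (GRCm38, 5′ to 3′, coding strand), with the codons that define each pattern in capitals. The ITAM pattern searched was a tyrosine codon, 2 codons of any kind and a leucine or isoleucine codon, then 6 to 8 codons of any kind and the same pattern again.
Fcer1g ITAM, codons 65 to 79 of 86: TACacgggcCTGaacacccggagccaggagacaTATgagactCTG
Tyrobp ITAM, codons 92 to 106 of 114: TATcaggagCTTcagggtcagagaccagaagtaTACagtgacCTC
Hcst PI3 kinase motif (tyrosine codon, 2 codons, methionine codon), codons 72 to 75 of 79: TACatcaacATG
Fcgr2b ITIM (isoleucine, serine, threonine or valine codon, 1 codon, tyrosine codon, 2 codons, leucine or isoleucine codon), codons 317 to 322 of 340: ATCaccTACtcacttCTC
The ITAM pattern was found in Fcer1g and Tyrobp and in none of the other 6 members. It was present in 2.86% of 21562 coding genes, each taken by its longest CCDS coding sequence or, where it had none, its longest complete one. The motifs of Hcst and Fcgr2b are much shorter, and their patterns occur in 24.9% and 35.9% of coding genes. The Hcst pattern was also found 3 times in Syk, and the ITIM pattern once each in Tyrobp, at codons 90 to 95 and so overlapping its ITAM, and in the activating Fcgr1, at codons 317 to 322.

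Values are transcripts per 1000000 (TPM), a share of the library scaled by transcript length, so levels can be set side by side between genes. The fibroblast values summed to 999545 and the macrophage values to 999609. With 1 library per cell type there are no replicates, so no value here has an error, no test was run, and no p-value can be given. The depth of the libraries is unknown, since TPM do not carry it, and a value of 0 means only that the gene is listed at 0. Cell type cannot be told apart from medium, cell number and preparation, and more cells carrying a transcript cannot be told apart from more RNA per cell. Genes are called higher on the side where TPM plus 1 was 4-fold or more of the value opposite, given a level of 5 TPM or more on that side. Marker genes went with the labels, since 12 of 12 macrophage markers and 12 of 12 fibroblast markers were higher in their own library. The marker lists were chosen with earlier results of these data known. The macrophage list also holds Ptprc, Itgam and Adgre1, by whose products cells were sorted out of the fibroblasts.

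All 8 members were higher in the macrophage library. Over all genes reaching 5 TPM in at least 1 library, 8.77% were higher in macrophages and 14.3% in fibroblasts. The same shares are the background of the counts given for gene lists below. The members summed to 7707 TPM in the macrophage library, 0.771% of its total, and to 10.8 TPM in the fibroblast library. Fcer1g and Tyrobp together made up 83.4% of that macrophage sum. The median log2 ratio of TPM plus 1, macrophage over fibroblast, was 7.31 over the 8 members and -0.26 over the 11191 genes that reached 5 TPM. These 8 genes were picked with earlier results of these libraries known, so their direction is a description.

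**Figure D1:**
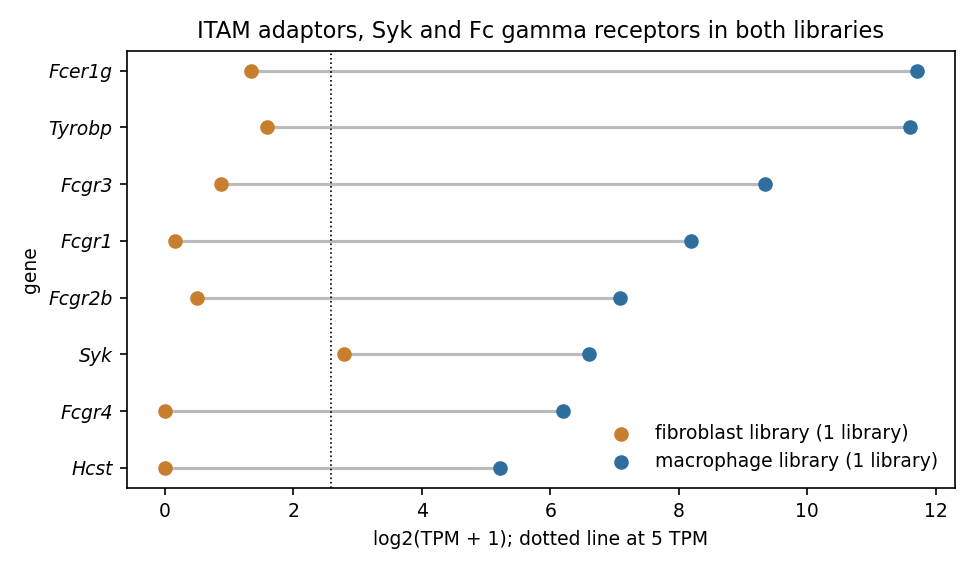
Level of each member in the fibroblast library (orange) and the macrophage library (blue) as log2(TPM + 1), 1 library each, ordered by the macrophage level, with a dotted line at 5 TPM. Syk, at 5.89 TPM, is the 1 member whose fibroblast point lies right of the line.

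The signal chains with an ITAM were among the most abundant transcripts of the macrophage library. Fcer1g reached 3346 TPM in macrophages, against 1.54 in fibroblasts, a 2177-fold ratio of TPM. It ranked 27 among all genes of the macrophage library, and its log2 ratio of 10.37 was the largest toward macrophages of the 11191 genes. Ranks by log2 ratio depend on the 1 added to TPM. By the ratio of TPM alone Fcer1g was not the highest, since Fcgr1, for example, stood at 2604-fold. Tyrobp stood at 3085 TPM against 2.00, a 1545-fold ratio, and ranked 30 by level and 3 by log2 ratio of TPM plus 1. The levels of the 2 chains in macrophages were close, with 1.08 Fcer1g transcripts per Tyrobp transcript, and with no replicates it cannot be said whether they differ. Hcst was far lower, at 36.1 TPM in macrophages, and listed at 0 in fibroblasts. There were 85.4 Tyrobp transcripts per Hcst transcript in the macrophage library, although the 2 genes are direct neighbours.

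Syk, the kinase that docks on the phosphorylated ITAM, had the smallest difference of the members. It reached 95.9 TPM in macrophages, against 5.89 in fibroblasts, a 16.3-fold ratio and a log2 ratio of 3.81. Relative to the chains it was scarce in macrophages, with 34.9 Fcer1g and 32.2 Tyrobp transcripts per Syk transcript. In the fibroblast library the order was opposite: Syk was the highest of the 8, and Fcer1g stood at 0.261 of its level. Syk's only close relative, Zap70, was listed at 0 in both libraries.

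Among the IgG receptors the activating genes held most of the transcripts. Fcgr3, the low-affinity receptor for immune complexes, stood at 647 TPM in macrophages and 0.827 in fibroblasts, a 782-fold ratio. Fcgr1, the high-affinity receptor for monomeric IgG, stood at 290.1 TPM against 0.111, a 2604-fold ratio that rests on a fibroblast value near 0. Fcgr4, a receptor for some IgG subclasses, stood at 72.2 TPM and was listed at 0 in fibroblasts. The inhibitory Fcgr2b stood at 135 TPM against 0.413, a 328-fold ratio. Of the 1144 TPM of the 4 receptors in macrophages, Fcgr3 made up 56.5%, Fcgr1 25.3%, Fcgr2b 11.8% and Fcgr4 6.31%. The 3 activating genes thus summed to 7.45 transcripts per Fcgr2b transcript. Fcgr4 alone was below the inhibitory gene, at 0.533 of its level. Fcer1g, which the activating receptors share, stood at 3.32 times their summed level.

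Reads of Fcgr2b and Fcgr3 cannot be divided without doubt, since the genes are close copies over part of their length. Of the different 31-base windows in Fcgr3 transcripts of GENCODE M21, 13.4% were also in an Fcgr2b transcript, and these were 4.15% of the windows of Fcgr2b. Fcer1g, Tyrobp, Hcst and Fcgr1 shared no 31-base window with another gene's transcripts. Counted over all other genes, the share was 5.78% for Fcgr2b, 1.31% for Fcgr4 and 0.0319% for Syk. Fcgr2b also has an antisense gene annotated over it, Gm38204, and whether strand was used in counting is not given in the sources used here.

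**Figure D2:**
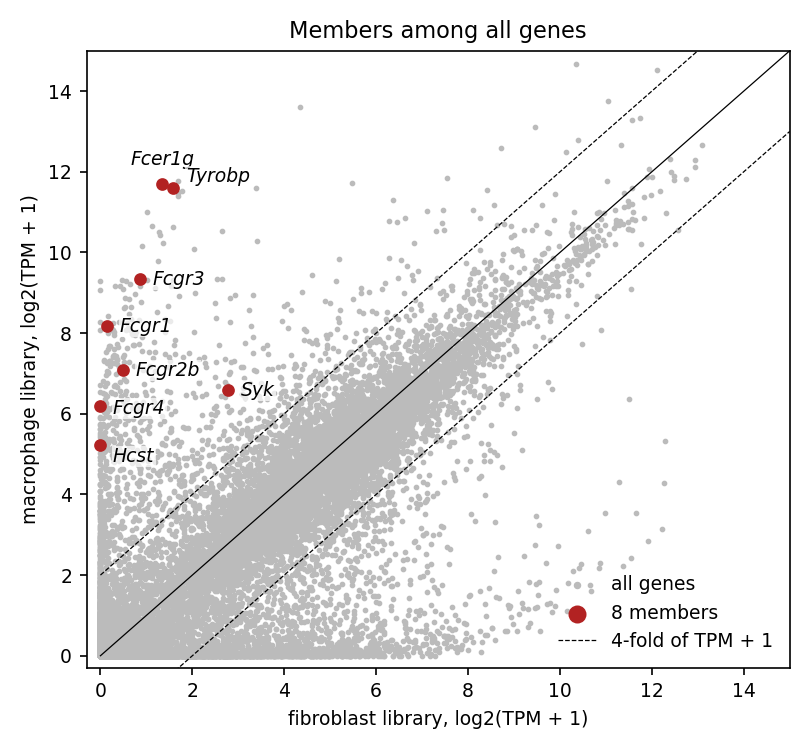
Every gene by its fibroblast level (x axis) and macrophage level (y axis), both as log2(TPM + 1), with the 8 members in red, a solid line at equal values and dashed lines at 4-fold. Fcer1g and Tyrobp sit together at the upper left edge, and Syk lies nearest to the dashed line of all 8.

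The genes whose pair of values lay nearest to a member were found by the distance of log2(TPM + 1) over the 2 libraries, among 21532 protein-coding genes other than the 8. Fcer1g and Tyrobp themselves lay 0.27 apart, nearer than any of these to Fcer1g. Outside the 8, the nearest to both were the complement gene C1qb, the inhibitory receptor gene Lilrb4a and the lysosomal protease gene Ctss. C1qb stood at 3514 TPM in macrophages against 2.21 in fibroblasts, at a distance of 0.35 from Fcer1g. Lilrb4a, at 2829 against 2.20, lay 0.16 from Tyrobp. Near Syk lay Cyth1 and Adcy7, with Cyth1 at 98.0 against 6.02 TPM and a distance of 0.04. With 2 libraries, likeness here means only a similar pair of values.

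The small member values in the fibroblast library can be set beside those of genes that mark macrophages. The 12 macrophage markers appeared in the fibroblast library at 0.0494% (C1qa) to 0.505% (Mrc1) of their macrophage level, with a median of 0.158%. Within that range were 3 members, Tyrobp at 0.0647%, Fcgr3 at 0.128% and Fcgr2b at 0.305%. Fcer1g at 0.0459% and Fcgr1 at 0.0384% lay just under it, and Hcst and Fcgr4 were listed at 0. Syk, at 6.14%, lay above all 12 markers. Among the 12 markers are the genes of the proteins by which macrophages were sorted out, Ptprc at 0.352 TPM, Itgam at 0.483 and Adgre1 at 0.457. The range is thus partly made of genes that the sort acted on. Several markers and members were below 1 TPM in fibroblasts, where differences cannot be judged. The part of remaining macrophages in the member values of the fibroblast library was not tested.

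**Figure D3:**
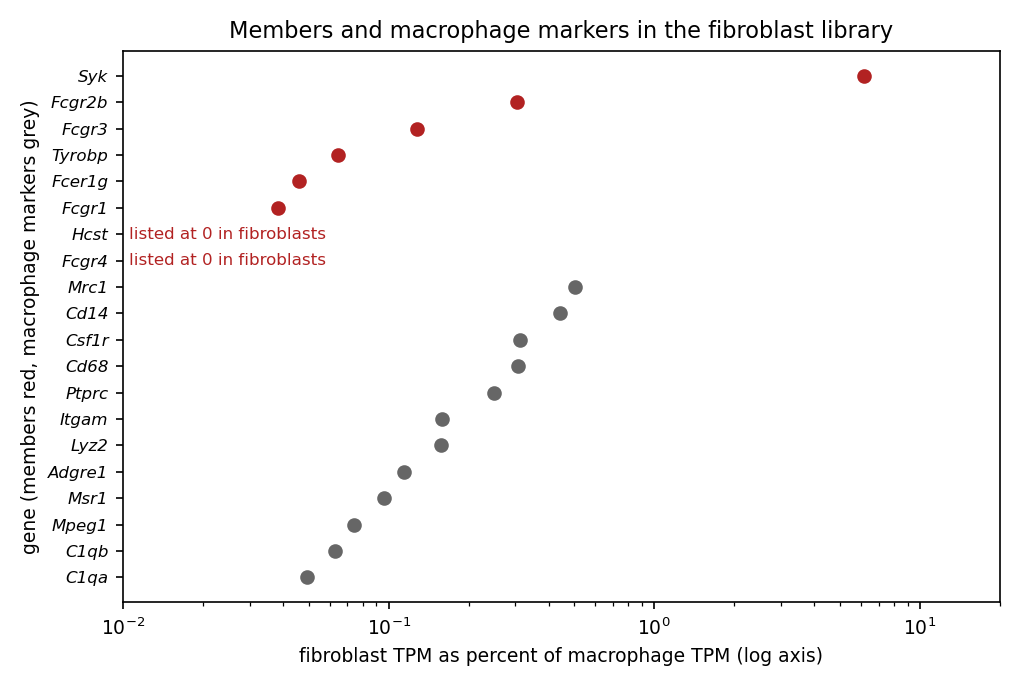
Fibroblast TPM as percent of macrophage TPM, on a log axis, for the 8 members (red) and 12 macrophage markers (grey), 1 value each from the 2 libraries. Syk at 6.14% stands apart from all the other points, which lie between 0.0384% and 0.505%, and 2 members are listed at 0.

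Other blood cells use the same genes, and their markers were read in the macrophage library. Of 10 neutrophil genes, 5 were called for macrophages, and the list summed to 498 TPM there against 2.27 in fibroblasts, led by S100a9 at 268 TPM and S100a8 at 157. The 5 passed the minimum through the macrophage library alone, so their call was close to fixed. The share over all genes was 8.77%. Also called were Ngp at 48.3 TPM, Ltf at 12.0 and Camp at 5.17, each listed at 0 in fibroblasts. Not called were Ly6g, listed at 0 in both libraries, Cxcr2 at 0.563 TPM, Mpo at 2.83, Elane at 2.34 and Retnlg at 2.01. The part of neutrophils or their precursors in the member values was not tested. Natural killer, T, B and dendritic cell markers summed to 0.880, 2.72, 4.42 and 1.96 TPM in the macrophage library, with Ncr1, the defining receptor gene of natural killer cells, listed at 0. The highest of them in either library were Eomes and Klrd1 for natural killer cells, Cd4 and Cd8a for T cells, Cd79b and Cd79a for B cells, and Zbtb46 and Ccr7 for dendritic cells. All 6 mast cell and basophil genes, the IgE receptor gene Fcer1a among them, were listed at 0 in macrophages, although Mcpt8 stood at 30.8 TPM in fibroblasts. Of 5 platelet genes, Pf4, which macrophages also make, stood at 633 TPM in macrophages, Ppbp was listed at 0 there and at 24.9 in fibroblasts, and Gp9 was listed at 0 in both.

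The receptors that borrow these chains were present in the macrophage library across most of the list. It held 23 receptors that use Fcer1g, Tyrobp or Hcst, or that carry an ITAM-like motif of their own. Of these, 15 reached 5 TPM, and each of the 15 was called for macrophages. Over all genes reaching 5 TPM in at least 1 library, 8.77% were. All 15 passed the minimum through the macrophage library alone, so their call was close to fixed and the count is a description. The median log2 ratio of the 15 was 5.78, macrophage over fibroblast. Trem2, the lipid-sensing DAP12 receptor, led at 1452 TPM against 1.41 in fibroblasts. Clec4d, a C-type lectin of the Fcer1g group, stood at 573 against 0.237, the DAP12 lectin Clec5a at 194.5 against 0.113, and Cd300ld at 148 against 0.290. Klrk1, encoding NKG2D, the best known partner of Hcst, stood at 0.107 TPM in macrophages and 0.140 in fibroblasts. Several of these receptors, such as the Pira, Sirpb1 and Pilrb genes, have near-identical copies, so their values are uncertain.

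The remaining ITAM chains and Fc receptors were mostly below 5 TPM. None of the 7 other ITAM or associated chains, which belong to T cell, B cell and IgE receptors, reached 5 TPM, and Cd79b was highest at 3.66 TPM in macrophages. Of 12 other Fc receptor and Fc receptor-like genes, 3 reached 5 TPM and 2 were called for macrophages. The median log2 ratio of the 3 was 2.35. Fcrls stood at 255 TPM against 0.128, and Trim21, encoding a cytosolic antibody receptor, at 19.7 against 3.05. Fcgrt, encoding the neonatal Fc receptor that recycles IgG, was called for neither side, with 26.4 TPM in macrophages beside 39.8 in fibroblasts. It was named after its values were seen.

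The Src family kinases, which phosphorylate ITAMs, were divided between the libraries. Of 8 genes, 5 reached 5 TPM, and these were called 2 for macrophages, 2 for fibroblasts and 1 for neither. Their median log2 ratio was 0.21. Lyn stood at 117 TPM in macrophages against 7.69. Src stood at 44.1 TPM in fibroblasts against 0.801, and Yes1 at 14.39 against a listed 0. Fyn, named after its values were seen, stood at 46.5 TPM in macrophages and 39.9 in fibroblasts.

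Genes that carry the signal on from Syk lay mostly on the macrophage side. Of 26 Syk relatives and downstream genes, 22 reached 5 TPM, with 16 called for macrophages, 1 for fibroblasts and 5 for neither. The shares over all genes were 8.77% for macrophages and 14.3% for fibroblasts. The median log2 ratio of the 22 was 3.37. The adaptor genes Lat2 and Pik3ap1 stood at 573 and 248 TPM against 1.92 and 0.220. The kinase gene Prkcd, at 182 against 41.3 TPM, and the adaptor gene Sh3bp2, at 154 against 4.70, were also higher. The gene higher in fibroblasts was the phospholipase gene Plcg1, at 36.6 TPM against 7.21. The 6 genes of the phagocyte oxidase, an enzyme switched on when Fc receptors are engaged, were all called for macrophages. All but Cyba passed the minimum through the macrophage library alone, so their call was close to fixed. The median log2 ratio of the 6 was 7.05. Among them were Cyba at 1506 TPM against 178, Ncf1 at 269 against 0.461 and Ncf4 at 193 against 0.228.

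Inhibitory genes were split by kind. Of 15 ITIM receptor genes, 13 reached 5 TPM, and each of these was called for macrophages. All but Sirpa passed the minimum through the macrophage library alone, so their call was close to fixed. The share called for macrophages over all genes reaching 5 TPM in at least 1 library was 8.77%. The median log2 ratio of the 13 was 5.99. Lilrb4a, the sum of 2 rows, led at 2829 TPM, followed by Sirpa, the receptor for CD47, at 699 against 23.2, Cd300lf at 302 against 0.211 and Cd72 at 249 against 0.613. Of 11 inhibitory enzymes and adaptors, all reached 5 TPM, but 4 were called for macrophages and 7 for neither side. The median log2 ratio over the 11 was 1.00. The 4 were Ptpn6, encoding the phosphatase SHP1, at 208 TPM against 2.02, Inpp5d, encoding SHIP1, at 134.0 against 0.908, Dok2 at 92.1 against 0.967 and Dok3 at 73.6 against 0.453.

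**Figure D4:**
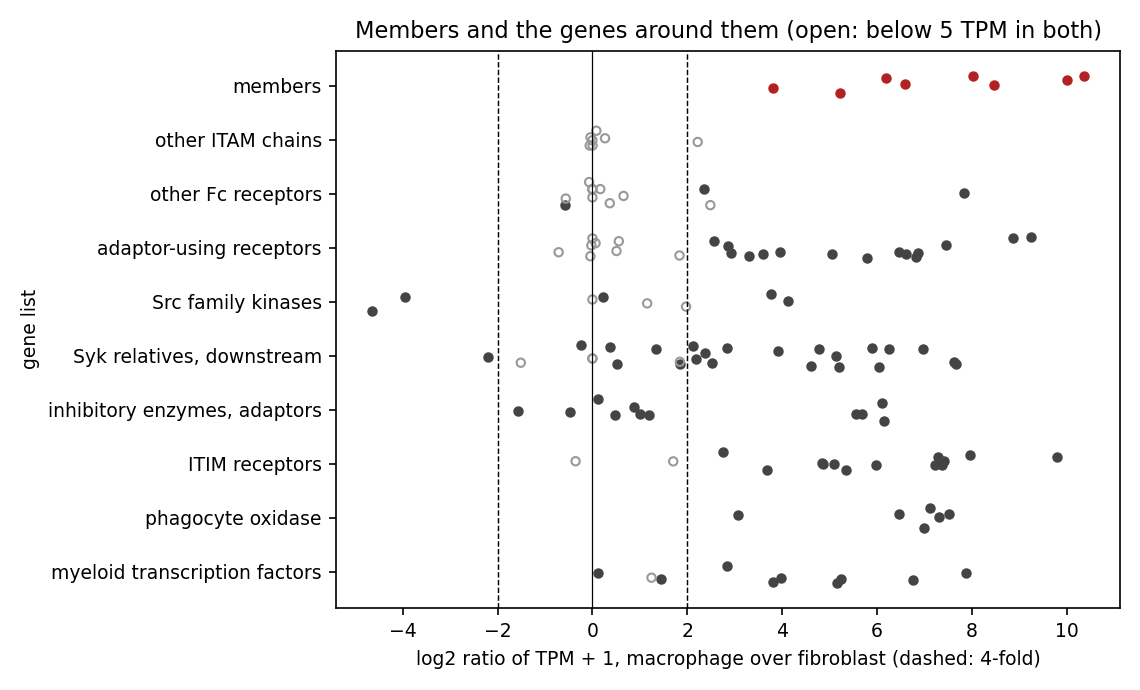
Log2 ratio of TPM + 1, macrophage over fibroblast, of each gene in the members (red) and in 9 lists around them (grey), with open circles for genes below 5 TPM in both libraries and dashed lines at 4-fold. The members lie between 3.81 and 10.37, and the Src family kinases have filled points beyond both dashed lines.

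In the genome, 4 of the 8 members lie in 1 stretch of chromosome 1 and 2 lie side by side on chromosome 7 (GRCm38, GENCODE M21). On chromosome 1 Fcgr2b is on the minus strand at 170958617 to 170976547 (ENSMUSG00000026656), Fcgr4 on the plus strand at 171018920 to 171029761 (ENSMUSG00000059089) and Fcgr3 on the minus strand at 171051174 to 171064935 (ENSMUSG00000059498). Fcer1g follows on the minus strand at 171229572 to 171234365 (ENSMUSG00000058715). Of the 7 other protein-coding genes of the table within these 275749 bp, 4 stayed below 5 TPM in both libraries and 3 reached it without being called for either. They include Sdhc, between Fcgr3 and Fcer1g, at 237 TPM in macrophages and 202 in fibroblasts, and Apoa2, the nearest to Fcer1g, at 3.47 and 2.44. Tyrobp, a plus-strand gene of chromosome 7 at 30413760 to 30417585 (ENSMUSG00000030579), and Hcst, on the minus strand at 30417712 to 30419854 (ENSMUSG00000064109), face each other with their ends 126 bp apart. Beyond Hcst, Nfkbid was also called for macrophages, at 11.8 TPM against 0.489, and Aplp1 for fibroblasts, at 40.1 against 1.54. On the Tyrobp side Lrfn3 was called for fibroblasts, at 7.42 against 0.171. These neighbours were named after their values were seen. Fcgr1 is a minus-strand gene of chromosome 3 at 96282909 to 96293969 (ENSMUSG00000015947) and Syk a plus-strand gene of chromosome 13 at 52583173 to 52648792 (ENSMUSG00000021457).

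Promoter sequence was compared because the members were high in the same library. RefSeq (GRCm38.p6) sequences of 250 bases before the start were found for 7 of the 8 members, Tyrobp being the exception, and held 9 starts. The motif GAGGAA, the core of the site of the myeloid factor PU.1, was searched on both strands and found in 4 of the 7 genes, Fcgr1, Fcgr3, Fcgr4 and Syk. Counted by start, with the site of Fcgr3 counted for both of its starts, it lay before 5 of the 9. It was present in 23.3% of the 32851 promoters in the table. It began 55 bases before the start of Fcgr1, 22 before that of Fcgr4, 6 or 15 before the close pair of starts of Fcgr3, where it is the same site, and 9 before the downstream start of Syk. The motif TATAAA was found before none of the 9 starts and in 12.4% of all promoters. Fcgr1 and the downstream start of Fcgr3 also shared the 14-base run TTCCTTCCTCTTTT, which 3 of the 32851 promoters hold. That run was picked as the longest shared between promoters of different members, and it contains the GAGGAA site of both. How few promoters hold it is therefore not a test. The motif was chosen with these sequences in view, and a match is a description of letters, not of binding.

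The promoters of the 3 activating receptor genes are shown because each holds GAGGAA on the opposite strand within 55 bases of the start, and that of the upstream start of Syk because it is unlike them. Each runs 5′ to 3′ on the gene's strand up to the last base before the start, with the motif or its complement in capitals.
Fcgr1, chr3:96293970-96294219, minus strand: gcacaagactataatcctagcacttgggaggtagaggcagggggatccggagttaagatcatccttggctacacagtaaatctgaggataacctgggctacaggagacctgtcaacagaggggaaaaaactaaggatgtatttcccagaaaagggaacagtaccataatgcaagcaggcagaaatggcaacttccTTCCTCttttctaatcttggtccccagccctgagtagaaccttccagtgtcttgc
Fcgr3, chr1:171059395-171059644, minus strand, downstream start: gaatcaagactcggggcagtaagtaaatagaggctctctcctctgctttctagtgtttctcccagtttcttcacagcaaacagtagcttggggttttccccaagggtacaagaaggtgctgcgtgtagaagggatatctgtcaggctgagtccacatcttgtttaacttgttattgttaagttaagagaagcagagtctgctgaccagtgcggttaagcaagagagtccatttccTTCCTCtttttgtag
Fcgr4, chr1:171018676-171018925, plus strand: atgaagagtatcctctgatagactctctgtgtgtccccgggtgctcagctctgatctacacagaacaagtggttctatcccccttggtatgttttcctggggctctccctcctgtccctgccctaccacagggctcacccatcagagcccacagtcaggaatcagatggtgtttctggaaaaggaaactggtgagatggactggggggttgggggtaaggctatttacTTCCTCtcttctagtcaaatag
Syk, chr13:52583187-52583436, plus strand, upstream start: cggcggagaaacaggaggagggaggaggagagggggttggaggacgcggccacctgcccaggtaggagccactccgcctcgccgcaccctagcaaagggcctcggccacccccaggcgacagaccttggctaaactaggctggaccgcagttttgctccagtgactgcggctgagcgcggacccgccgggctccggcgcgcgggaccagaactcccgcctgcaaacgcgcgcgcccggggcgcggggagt
The Syk sequence had a GC content of 71.6%, against 47.6% for Fcgr1, 45.2% for Fcgr3 and 51.6% for Fcgr4. Its observed over expected CpG was 0.846, above 84.4% of all promoters. The other 8 starts of the members had values from 0.0601 (Fcgr4) to 0.399 (Fcgr2b), where the median of all promoters was 0.374. The downstream start of Syk, at 0.147, was among the low ones, and the TPM do not say which start was used in either library.

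**Figure D5:**
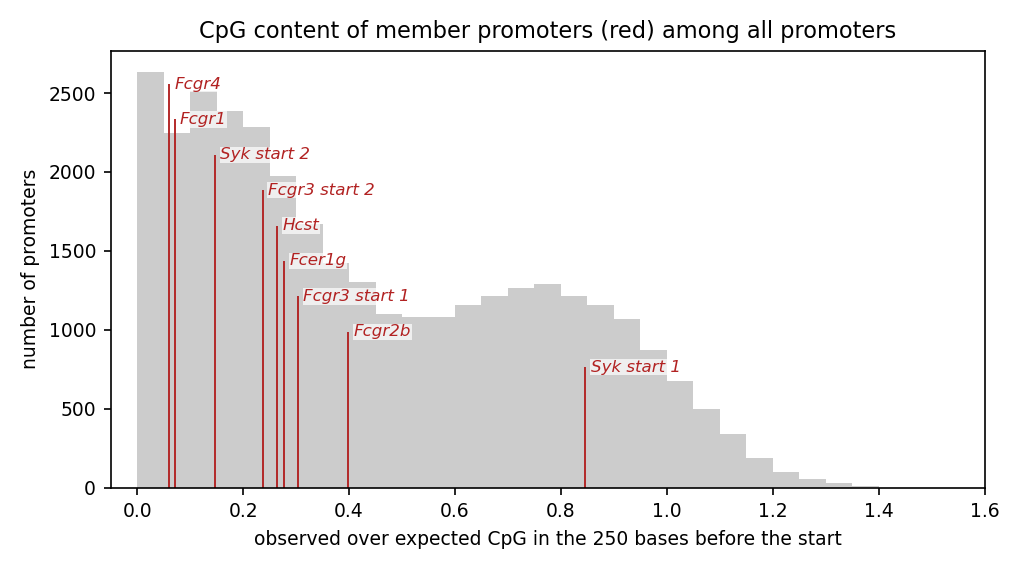
Number of promoters (grey bars) by observed over expected CpG in the 250 bases before the start, with the 9 member starts as red lines whose heights are staggered for reading and carry no value. The upstream start of Syk lies at 0.846 and the other 8 at 0.399 or less.

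Of the transcription factor genes that act in the myeloid lineage, 9 of 10 reached 5 TPM, and 7 were called for macrophages and 2 for neither. The share called for macrophages over all genes was 8.77%. The 9 had a median log2 ratio of 3.97. Spi1, which encodes PU.1, led at 355 TPM in macrophages against 0.529 in fibroblasts. Irf5 and Irf8, which act in interferon and Toll-like receptor responses, stood at 168 and 141 TPM against 3.75 and 0.319.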

How the data were processed

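Poly(A) RNA of 2 cultures was sequenced in paired reads of 76 bp from stranded libraries, per the labels' protocols. The submitters' processing notes name kallisto 0.43.1 and GRCm38. Which transcripts were quantified, how they were joined into genes and whether rows were filtered is not given in the sources used here. That the deposited values are TPM is inferred from their range and column sums, since the file names no unit. The table held 34456 rows. Rows sharing a symbol were added, date-like names were kept apart by their descriptions, and 34295 genes resulted. Each member had 1 row.

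The log2 ratios use TPM plus 1, which pulls those of low genes toward 0, and folds are ratios of TPM. With 1 library per group, genes were called by size alone (4-fold, 5 TPM) with Python 3.11.15 and pandas 2.3.3. The rule was run on simulated data as a check of the code only. The changes put in were far above 4-fold, in well-expressed genes and with an assumed noise. That run therefore does not measure the error of the calls made here. The members, lists and named genes were chosen with earlier results of these data known. Named are all members, in each list and direction the 4 or fewer called genes of highest level (up to 2 detected at 1 TPM where there was none), the 3 genes nearest to Fcer1g, Tyrobp and Syk, and the 2 highest markers of the blood cell types. A few genes named by it were left out of the text. The lists cover other ITAM chains, other Fc receptors, chain-using receptors, Src family kinases, Syk relatives and downstream genes, inhibitory enzymes, ITIM receptors, the phagocyte oxidase, myeloid transcription factors, and markers of macrophages, fibroblasts, neutrophils, natural killer, T, B, dendritic and mast cells, and platelets. Alternatives were another pseudocount, minimum, fold, scaling between libraries, and the highest row in place of the sum.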

Additional observations from a re-analysis of the deposited data

How the results depend on the processing

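All 8 members stayed higher in the macrophage library under each of 8 alternatives: adding 0.1 or 5 in place of 1, asking for 10 TPM, 1 TPM or no minimum, a 2-fold rule, scaling by the median of ratios, and using a gene's highest row alone. Most of these could not have dropped a member. A minimum of 1 TPM, no minimum and a 2-fold rule only loosen the call, and each member has 1 row. Adding 0.1 only widens the members' ratios, and their lowest macrophage value, 36.1 TPM for Hcst, is above 10 TPM. Scaling moved each member further toward macrophages, so only adding 5 pulled members toward losing the call. The members' log2 ratios, macrophage over fibroblast, changed only with the other pseudocounts and with scaling. Over these, that of Fcer1g ranged from 9.0 to 11.0, that of Syk from 3.21 to 4.00, and that of Hcst from 3.04 to 8.50. The range of Hcst comes from the number added to its listed 0. Scaling changed TPM ratios by 0.18 on the log2 scale, which moved the members' log2 ratios of TPM plus 1 by 0.089 to 0.17. With a pseudocount of 5, 652 genes were called for macrophages and 896 for fibroblasts, in place of 981 and 1602, those of the other Fc receptors fell to 1, and those of the chain-using receptors to 9. A 2-fold rule gave 1698 and 2637 genes. Among the other ITAM chains, 1 gene was higher in macrophages with no minimum, and 1 with a minimum of 1 TPM. The other counts stayed within 1.5 times. No paired analysis was possible because each group held 1 library. Depth is unknown, so differences among values below 1 TPM cannot be judged.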

Other observations

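Receptor transcripts were set against the chains they use in the macrophage library, with each listed receptor given to 1 chain after the values were seen, although some can use more than 1. The 8 listed Fcer1g-using receptors other than Fc gamma receptors summed to 1016.5 TPM, and with Fcgr1, Fcgr3 and Fcgr4 to 2025 TPM, so that Fcer1g stood at 1.65 times the sum. The 11 listed DAP12 receptors summed to 1869 TPM, most of it Trem2, and Tyrobp likewise stood at 1.65 times that sum. Receptors outside the lists are not counted. Hcst stood at 36.1 TPM, whereas Klrk1, the 1 receptor given to it, stood at 0.107.

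Some close relatives of the enzymes around Syk had unlike ratios (named after their values were seen). Of them, Plcg1 and Plcg2 alone were called on opposite sides. The phospholipase gene Plcg2 stood at 87.8 TPM in macrophages and 2.65 in fibroblasts, against 7.21 and 36.6 for Plcg1. Vav1, which activates Rac in blood cells, stood at 143 TPM in macrophages against 0.158, and Vav3 at 21.02 against 2.08, while the widely expressed Vav2, called for neither side, stood at 11.4 against 7.57. Among phosphatases, Inppl1, encoding SHIP2, stood at 75.8 TPM in macrophages and 54.0 in fibroblasts, called for neither side, beside the macrophage-high Inpp5d. Ptpn11, encoding SHP2, stood at 31.5 TPM in macrophages and 95.4 in fibroblasts, under the 4-fold rule, beside the macrophage-high Ptpn6. Bcl10, Card9 and Malt1 form a complex downstream of Syk: Card9 stood at 52.5 TPM in macrophages against 0.452 and Malt1 at 12.7 against 1.64, whereas Bcl10 stood at 40.9 against 48.6.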
